A study of Mus musculus with 6 samples.

Results

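The genes described here encode the chaperones of the cytosol and the mitochondria, with the regulators that work with them. Members were taken by gene symbol from a table of 28789 mouse genes: the Hsp70 and Hsp110 genes, Hsp90aa1 and Hsp90ab1, the small heat shock proteins, the J-domain proteins, the subunits of the CCT ring, the mitochondrial chaperonin, the Bag genes and Hsf1. Entries not listed as protein coding were left out, as were 5 chaperone genes of the endoplasmic reticulum, Hspa5, Dnajb9, Dnajb11, Dnajc3 and Dnajc10. Location was not used otherwise, so members that act elsewhere in the cell may remain. Hspb11 and Hspbap1 were matched by name only and are counted among the members. This gave 82 members, of which 67 had enough signal to be tested among 11483 genes.

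Chaperones bind unfolded stretches of protein and release them in cycles of ATP use. Hsp70 takes clients from J-domain proteins and gives them up with the help of nucleotide exchange factors, Hsp90 acts later on signalling proteins, and ring-shaped chaperonins enclose whole domains. In heat shock and other protein stress the transcription factor Hsf1 binds inverted repeats of the letters GAA in promoters and raises the inducible members. Kidney tubule cells use the same machinery.

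Poly(A) RNA came from TCMK1, a mouse renal tubular epithelial cell line, and every sample received angiotensin II (Ang II), a peptide hormone that raises blood pressure. The libraries were 3 controls with Ang II and 3 with Ang II and overexpression of YOD1, an enzyme that removes ubiquitin from proteins. The Ang II dose, the way YOD1 was introduced and whether controls carried an empty vector are not stated in the labels. The study set out to find pathways that YOD1 affects under Ang II.

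Values are FPKM, fragment counts scaled by transcript length and by the mapped fragments of the library, and read depth is unknown. Fold changes are YOD1 against control on the log2(FPKM + 1) scale, which understates changes of low genes. They were tested with limma across all 11483 genes, with an adjusted p under 0.05 as the threshold, and errors are SD over 3 libraries unless named as standard errors (SE). The labels do not say that replicates were separate cultures, and the spread behind each p-value may be technical.

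Yod1 itself stood at 0.842, 0.757 and 0.684 FPKM in the controls and at 1.73, 7.56 and 1.86 FPKM in the YOD1 libraries, higher in all 3 (log2 fold change 1.21, limma adjusted p = 0.141). Of 12 tubular markers 11 were tested, with Krt18 at 482 to 820 FPKM, while Slc34a1 of the proximal tubule was at 0 in 5 libraries. The leukocyte marker Ptprc stayed at or under 0.0708 FPKM, and the sum of 6 leukocyte markers, nearly all of it Cd68, was 12.9 to 23.0 FPKM in the controls and 12.6 to 15.8 FPKM with YOD1. A ribosomal RNA entry, Rn18s-rs5, held 0.421% to 0.733% of a control library's FPKM and 2.17% to 3.90% of a YOD1 library's. A rough estimate put the depth of the YOD1 libraries at 0.804 to 0.843 of that of control 1, and controls 2 and 3 at 1.02 and 0.977. It took the commonest ratio between values under 0.1 FPKM, which only 2.73% to 3.96% of such genes showed. The summed FPKM of 5 endothelial markers was 0.730 to 1.40 in the controls and 1.34 to 2.24 with YOD1, and that of 8 fibroblast markers was 15.3 to 18.1 and 10.2 to 17.4. Pax8 and Cdh16 of the tubular list were lower in every YOD1 library and passed no threshold. The part of these differences in the results was not tested. In bulk RNA, fewer cells expressing a gene and less RNA per cell cannot be told apart.

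The letters that Hsf1 is known to read were looked up in the promoters of the members. RefSeq windows of GRCm38.p6, from 250 bases before to 50 bases after each start site, matched 65 of the 82 members. The core GAANNTTC, which reads the same on both strands, occurred in the windows of 15 members (23.1%) and of 2442 of 27025 genes (9.04%). A longer form, in which the core is followed by NNGAA, was searched on both strands and occurred in 4 members, Dnajb6, Hspd1, Hspe1 and Hsph1 (6.15%), and in 0.662% of genes. A match is a run of letters and not a measured binding site. Stretches of members described below follow, 5′ to 3′ on the gene's strand, with every match to either form in capitals.
Hspa1a (chr17:34972233-34972280, minus strand): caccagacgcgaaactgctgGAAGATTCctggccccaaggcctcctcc
Hspa1b (chr17:34959315-34959362, minus strand): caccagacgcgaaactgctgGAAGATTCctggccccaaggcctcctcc
Hspb1 (chr5:135887782-135887829, plus strand): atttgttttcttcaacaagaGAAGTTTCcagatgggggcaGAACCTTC
Hspb6 (chr7:30553161-30553208, plus strand): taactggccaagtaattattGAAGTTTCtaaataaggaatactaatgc
Cct2 (chr10:117063390-117063437, minus strand): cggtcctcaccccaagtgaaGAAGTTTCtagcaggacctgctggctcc
Dnaja1 (chr4:40722336-40722359, plus strand): agcctctaGAAAATTCtacgaggc
Dnajb6 (chr5:29735844-29735872, plus strand): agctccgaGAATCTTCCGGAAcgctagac
Hspd1 (chr1:55088056-55088084, minus strand): gcggggccTTCCGGAAGGTTCTAGAAcgg
Hspe1 (chr1:55088051-55088079, plus strand): acggtccgTTCTAGAACCTTCCGGAAggc

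Hspd1 and Hspe1 lie head to head, and their stretches are nearly the same bases read from opposite strands. The Hspa1a and Hspa1b stretches have the same letters, and their whole windows are identical at 296 of 300 bases. How reads common to such near-identical genes were shared out is not known, so the split between Hspa1a and Hspa1b is uncertain. Among members with a window, 13 tested genes with the core had a median log2 fold change of 0.12, from -0.49 for Dnaja1 to 0.34 for Hspa1b. The median of the 38 without it was -0.12, and that of the 4 with the longer form was -0.01. Hspa8, Hsp90aa1 and Hsp90ab1 are among the members with no window and so are in none of these medians. Hspa1a and Hspa1b are both counted in them, as are Hspd1 and Hspe1. The same medians over all genes were not computed, and whether the core has a part in the difference was not tested.

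No member passed the threshold with YOD1 overexpression. By limma 0 of 67 were called, against 55 of 11483 genes, or 0.479% (0.444% higher and 0.0348% lower). At an unadjusted p under 0.05, 9 members were lower (13.4%, background 13%) and 5 were higher (7.46%, background 7.87%). In 12 members every YOD1 library lay below every control (17.9%, background 19.1%), and in 5 every one lay above (7.46%, background 9.77%). The median log2 fold change was -0.12 over the members and -0.10 over all tested genes, with 41 of 67 below 0 (61.2%, background 63.6%) and 26 above 0 (38.8%, background 36.4%). So each share stood near its background. With scaling by median ratios, which moves the median of all genes to -0.01, the members' median was -0.02.

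These counts moved when single libraries were left out, as did those over all tested genes. The 9 lower members at an unadjusted p under 0.05 became 4 without control 1 and 5 without YOD1 1. The 5 higher ones became 2 without control 1, 1 without control 2, 1 without YOD1 1 and 3 without YOD1 2. Over all 6 fits with a library left out the higher ones numbered from 1 to 7, so they also rose. In both directions together, the members went from 14 to 6, 7 and 6 without control 1, control 2 and YOD1 1. All tested genes went from 2398 to 1570, 1417 and 1730 in the same fits. YOD1 3 was the lowest of the 6 libraries for 32 of 67 members (47.8%) and for 42.5% of all tested genes. The median distance of the members from the control mean was -0.29 log2 units in YOD1 3 and -0.02 and -0.04 in YOD1 1 and 2, while all tested genes were at -0.18, -0.06 and -0.04.

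**Figure D1:**
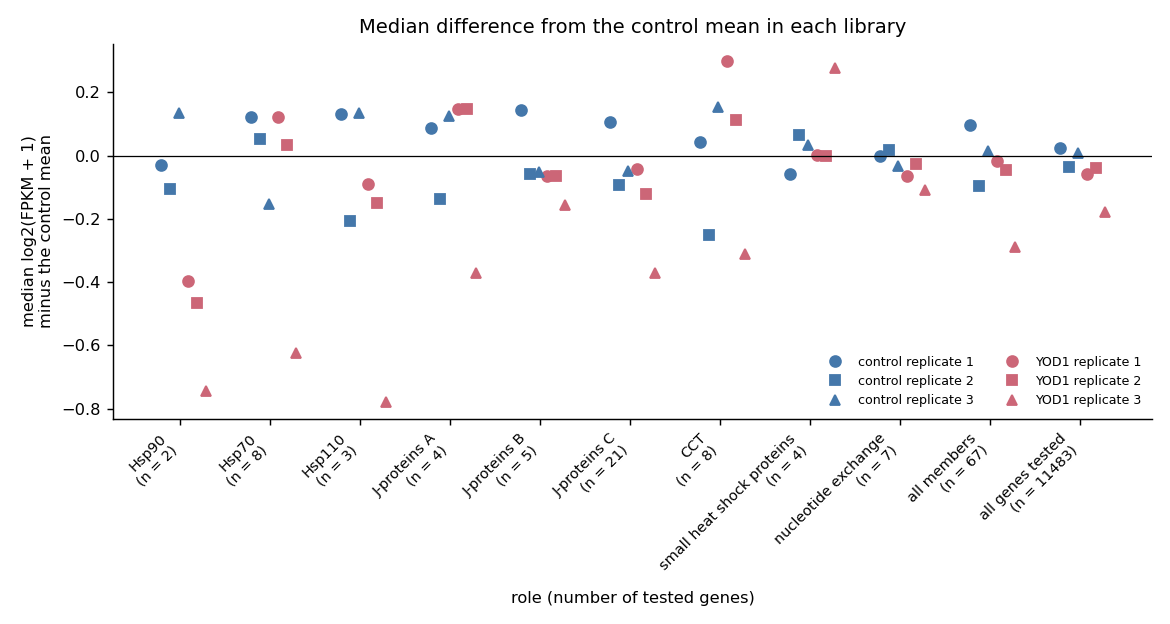
Median of log2(FPKM + 1) minus the control mean, by role and library, with 1 point per library and the number of tested genes under each role. YOD1 3 lies lowest for all members (-0.29) and for all tested genes (-0.18).

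The members spanned a wide range of levels. Hsp90ab1, the constitutive cytosolic Hsp90, stood far above the others at 1568, 1815 and 2020.2 FPKM in the controls and 1633, 1479 and 1625 FPKM in the YOD1 libraries, 38.4% to 45.3% of all the members' FPKM. The groups overlapped, and its log2 fold change was -0.18 (limma adjusted p = 0.546). By mean level over the 6 libraries the next were Cct2, Hspa8, Cct5, Cct7, Bag6, Hspa9, Hspd1, Hspb1 and Cct6a, and neighbours from Hspa9 to Cct6a lay within the spread of their libraries. Bag6, which guards tail-anchored and misfolded membrane proteins, measured 96.8 to 132 FPKM in the controls and 109 to 147 FPKM with YOD1. At the other end 15 members reached 1 FPKM in fewer than 3 libraries and were not tested, among them Hspb8, the small heat shock protein partner of Bag3, at 0.692, 1.16 and 0.730 FPKM in the controls and 0.355, 0.573 and 1.04 FPKM with YOD1. Together the members held 1.26%, 1.28% and 1.44% of the FPKM in the controls and 1.24%, 1.18% and 1.08% in the YOD1 libraries.

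On the log2(FPKM + 1) scale Hspa8 and Hsp90aa1 had the largest differences among the members, and both missed the threshold. With a pseudocount of 0.1, 2 members of lower level went further, Hspb7 at -2.11 and Dnajc28 at -1.06, beside -0.90 for Hspa8 and -0.92 for Hsp90aa1. Hspa8 encodes Hsc70, the constitutive cytosolic Hsp70 that folds new proteins and strips clathrin coats from vesicles. It measured 295, 265 and 209 FPKM in control replicates 1 to 3 and 181, 125 and 109.9 FPKM in YOD1 replicates 1 to 3. All YOD1 libraries lay below all controls, with means of 256 ± 43.8 and 139 ± 37.6 FPKM. The log2 fold change was -0.90 (SE 0.20, limma adjusted p = 0.0884), and leaving out 1 library at a time gave -1.11 to -0.75 with adjusted p from 0.055 to 0.308.

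Hsp90aa1 encodes the inducible cytosolic Hsp90. Its values were 37.4, 28.9 and 36.5 FPKM in the controls and 21.3, 21.3 and 12.8 FPKM in the YOD1 libraries. Again the groups did not overlap, and the means were 34.3 ± 4.65 and 18.4 ± 4.90 FPKM. The log2 fold change was -0.89 (SE 0.20, limma adjusted p = 0.0900), with -1.003 to -0.66 and adjusted p from 0.0796 to 0.245 when 1 library was left out. In the authors' deposited table the q-value was 0.0128 for Hspa8, 0.00564 for Hsp90aa1 and 0.0305 for Dnajc19. These were 3 of 82 members (3.66%), against 1.97% of all 28789 listed genes. Of the members 67 had enough signal to be tested here, and of the listed genes 11483, so the shares rest on unlike bases and cannot be compared directly. The authors' deposited table gave none of the 82 its mark of significance, which 0.993% of all listed genes carried. The mark may also ask for a 2-fold change. Its fold ratios were 0.541 for Hspa8, 0.537 for Hsp90aa1 and 1.68 for Dnajc19, and these lacked the mark.

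Ratios within a library set each gene beside a relative, and were chosen after the values were seen. For every 100 FPKM of Hsp90ab1 there were 2.39, 1.595 and 1.81 FPKM of Hsp90aa1 in the controls and 1.301, 1.44 and 0.786 in the YOD1 libraries. Hspa8 made up 65.0%, 69.1% and 56.9% of the summed FPKM of the 10 Hsp70 members in the controls and 52.5%, 41.9% and 52.2% with YOD1. That sum holds the mitochondrial Hspa9. It leaves out Hspa5 of the endoplasmic reticulum, at 143.8, 83.1 and 175.7 FPKM in the controls and 170.3, 136.6 and 88.8 FPKM with YOD1. Neither ratio overlapped between the groups. Each gave a two-sided exact permutation p = 0.1, the smallest that 3 against 3 allows, and 0.2 after Benjamini-Hochberg adjustment over the 8 ratios computed.

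**Figure D2:**
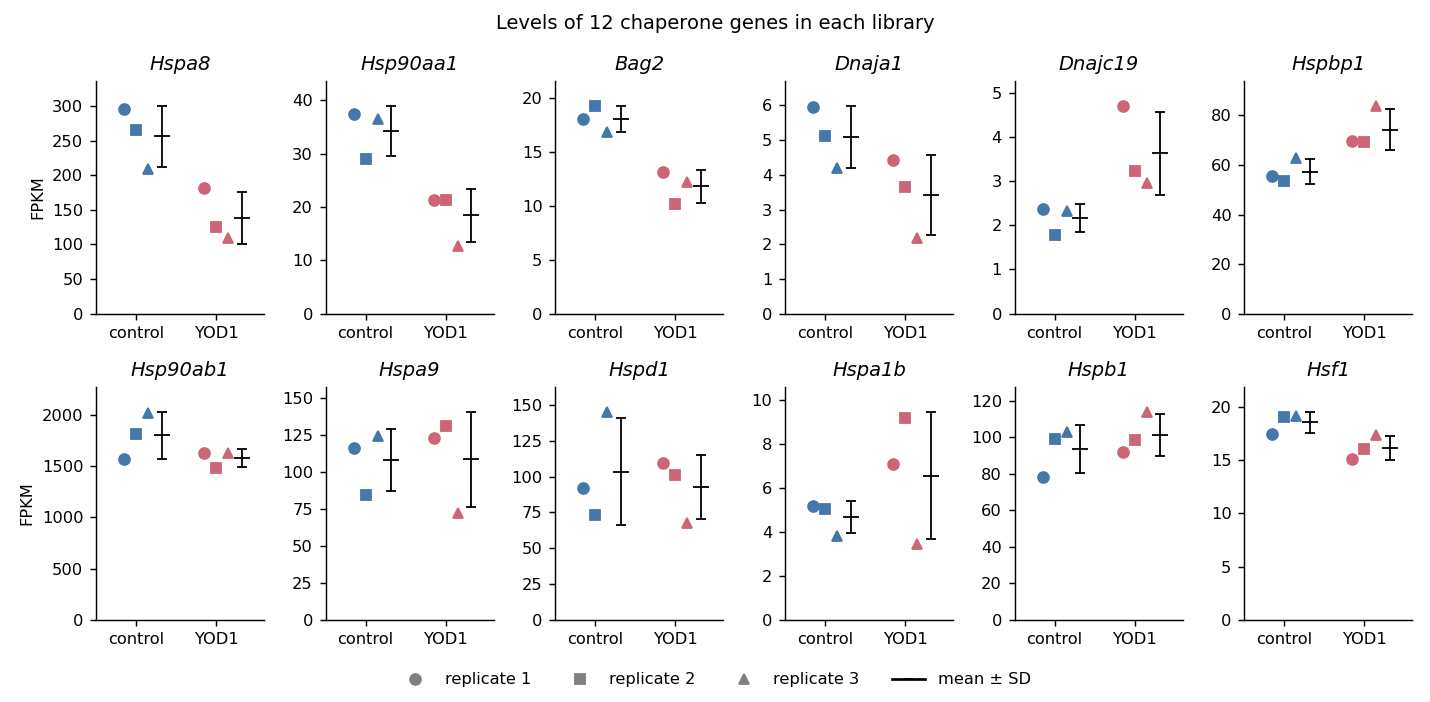
FPKM of 12 chaperone genes in each library, with symbols for replicates 1 to 3 and bars for mean ± SD over 3 libraries. Hspa8, Hsp90aa1, Bag2 and Hsf1 lie lower in every YOD1 library than in any control, Dnajc19 and Hspbp1 lie higher, and the groups overlap in the other panels.

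The stress-inducible Hsp70 genes stood low. Hspa1b measured 5.15, 5.03 and 3.83 FPKM in the controls and 7.06, 9.15 and 3.46 FPKM with YOD1. Hspa1a measured 1.72, 1.61 and 1.31 FPKM in the controls and 2.25, 2.58 and 1.08 FPKM with YOD1. In both genes YOD1 1 and 2 were above the controls and YOD1 3 was below them, so the groups overlapped (log2 fold changes 0.34 and 0.19, limma adjusted p = 0.482 and 0.622). For Hspa1b the log2 fold change was 0.089 without YOD1 2 and 0.68 without YOD1 3 (adjusted p = 0.860 and 0.0958), and for Hspa1a it was 0.033 and 0.42. Hspa2, a member of the family best known from the testis, measured 6.83, 6.97 and 5.39 FPKM in the controls and 4.40, 5.19 and 3.58 FPKM with YOD1, with no overlap (log2 fold change -0.46, adjusted p = 0.190). Of the 8 Hsp70 genes tested, 3 had a log2 fold change above 0 (background 36.4%) and 2, Hspa8 and Hspa2, were lower at an unadjusted p under 0.05 (background 13%).

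Hsp110 proteins are relatives of Hsp70 that help it exchange nucleotide. Hspa4l measured 2.41, 1.83 and 2.11 FPKM in the controls and 1.14, 1.80 and 0.816 FPKM with YOD1, all below the controls though YOD1 2 was close to control 2 (log2 fold change -0.49, limma adjusted p = 0.193, and -0.77 at a pseudocount of 0.1). Hsph1, the inducible member, measured 19.5, 15.9 and 20.4 FPKM in the controls and 17.3, 16.5 and 9.60 FPKM with YOD1. Its groups overlapped, with YOD1 3 far below the rest (log2 fold change -0.38, adjusted p = 0.321), and without that library the log2 fold change was -0.12.

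Among the nucleotide exchange factors, members differed in opposite directions. Bag2, which releases Hsp70 clients and restrains the ubiquitin ligase CHIP, measured 17.99, 19.2 and 16.9 FPKM in the controls and 13.1, 10.1 and 12.2 FPKM with YOD1. Every YOD1 library was lower, and the log2 fold change was -0.58 (SE 0.14, limma adjusted p = 0.103). Hspbp1, which also opens Hsp70, measured 55.6, 53.5 and 62.9 FPKM in the controls and 69.7, 69.3 and 83.8 FPKM with YOD1. Every YOD1 library was higher (log2 fold change 0.37, adjusted p = 0.175). Bag3, which leads clients to autophagy, measured 20.9, 24.4 and 20.9 FPKM in the controls and 16.8, 19.1 and 18.4 FPKM with YOD1, again without overlap (log2 fold change -0.27, adjusted p = 0.260). Of the 7 tested, 4 had a log2 fold change above 0 (background 36.4%).

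J-domain proteins hand clients to Hsp70 and make up the largest family here, with 30 tested genes and none called. Dnaja1, a general cytosolic partner of Hsp70, measured 5.97, 5.12 and 4.18 FPKM in the controls and 4.44, 3.64 and 2.17 FPKM with YOD1. One YOD1 library was above control 3, so the groups overlapped (log2 fold change -0.49, limma adjusted p = 0.242, and -0.27 without YOD1 3). Dnajb1, the inducible partner, measured 32.02, 31.5 and 22.001 FPKM in the controls and 26.8, 27.2 and 23.8 FPKM with YOD1, within the range of the controls (log2 fold change -0.12, adjusted p = 0.696). Dnajb6, which keeps polyglutamine proteins from aggregating, measured 12.1, 10.2 and 11.99 FPKM in the controls and 16.3, 17.8 and 9.95 FPKM with YOD1. YOD1 1 and 2 were above the controls and YOD1 3 below them (log2 fold change 0.30, adjusted p = 0.401, with 0.15 without YOD1 2 and 0.54 without YOD1 3).

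Of the 21 tested Dnajc genes, which have specialised places and clients, 16 had a log2 fold change below 0 (background 63.6%), 5 lay lower without overlap (background 19.1%) and 3 higher (background 9.77%). Dnajc28 measured 2.12, 1.39 and 1.70 FPKM in the controls and 1.24, 0.817 and 0.434 FPKM with YOD1. Dnajc13, which works on endosomes, measured 2.59, 3.07 and 2.52 FPKM in the controls and 1.37, 2.30 and 1.05 FPKM with YOD1. Both were lower in every YOD1 library (log2 fold changes -0.60 and -0.56, limma adjusted p = 0.150 and 0.169). Dnajc22 was steady within the YOD1 group, at 8.29, 8.44 and 8.36 FPKM, against 12.8, 11.2 and 10.3 FPKM in the controls (log2 fold change -0.40, adjusted p = 0.169).

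The higher Dnajc genes were led by Dnajc19, a part of the motor that pulls proteins into the mitochondrial matrix. It measured 2.38, 1.79 and 2.33 FPKM in the controls and 4.70, 3.22 and 2.96 FPKM with YOD1. All YOD1 libraries were above all controls (log2 fold change 0.54, SE 0.18, limma adjusted p = 0.166). Dnajc30, another mitochondrial J-protein, measured 10.8, 9.63 and 13.8 FPKM in the controls and 14.2, 15.8 and 14.4 FPKM with YOD1, also without overlap (log2 fold change 0.36, adjusted p = 0.231). Dnajc24, which takes part in making diphthamide on a translation factor, measured 12.5, 8.60 and 10.8 FPKM in the controls and 15.7, 15.4 and 11.8 FPKM with YOD1. Here YOD1 3 was inside the control range (log2 fold change 0.40, adjusted p = 0.233).

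**Figure D3:**
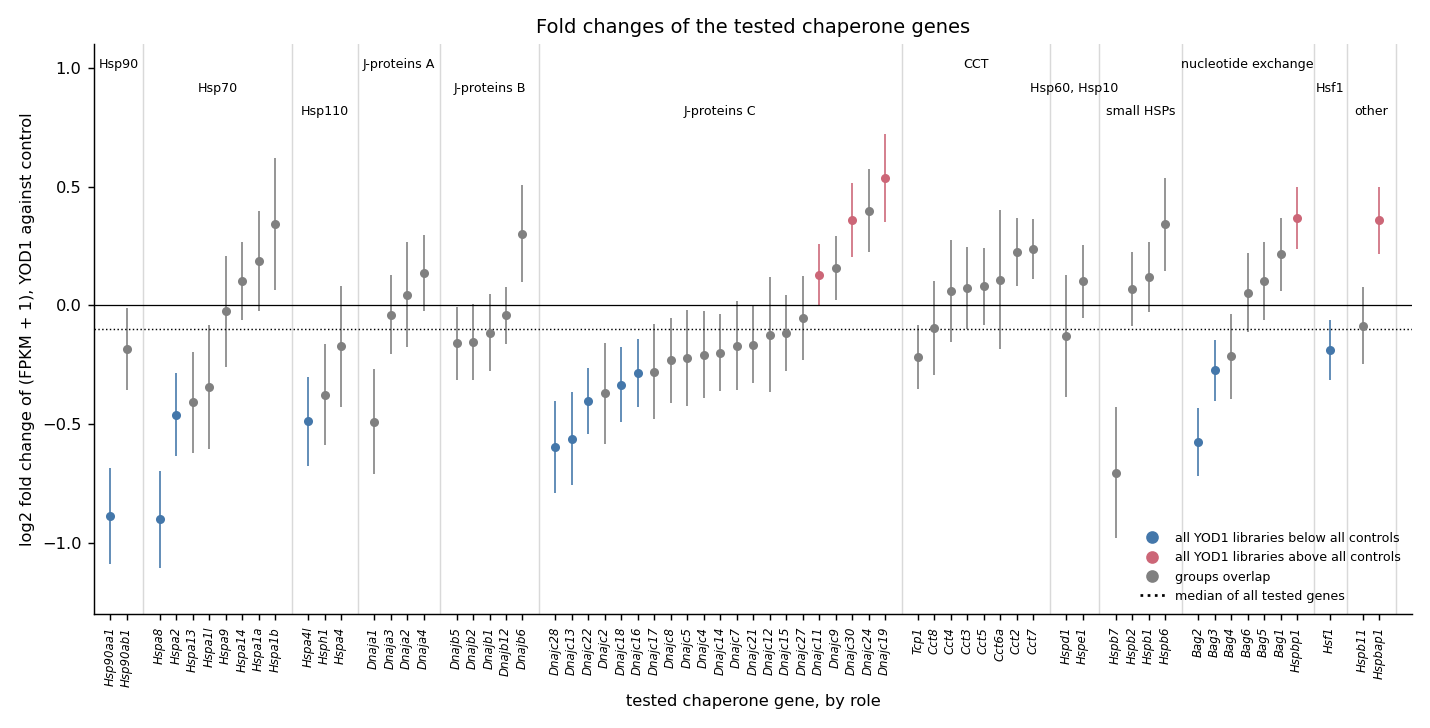
Log2 fold change of (FPKM + 1), YOD1 against control, of the 67 tested chaperone genes by role, with bars of 1 SE from limma and a dotted line at the median of all tested genes (-0.10). Blue and red mark the 12 and 5 genes whose groups did not overlap, and no gene passed the adjusted threshold.

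The CCT ring folds actin, tubulin and other large cytosolic proteins and is built from 8 different subunits, of which Tcp1 is the first. All 8 widely expressed subunit genes were tested (limma adjusted p from 0.302 to 0.888). None had separate groups (background 9.77% higher and 19.1% lower). Cct2 stood at 304, 305 and 369 FPKM in the controls and 362, 362 and 419 FPKM with YOD1. Cct7 stood at 130.3, 123 and 140.3 FPKM in the controls and 165, 139 and 159.6 FPKM with YOD1. YOD1 1 and 2 lay inside the control range for Cct2, and YOD1 2 did for Cct7. The log2 fold changes were 0.23 and 0.24.

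The other subunits sat between 30.5 and 224 FPKM, and their log2 fold changes ran from -0.22 for Tcp1 to 0.11 for Cct6a. Tcp1 measured 67.5, 61.1 and 73.1 FPKM in the controls and 63.9, 59.0 and 50.5 FPKM with YOD1. Cct6a measured 95.5, 50.4 and 93.5 FPKM in the controls and 117, 85.2 and 56.8 FPKM with YOD1, so control 2 and YOD1 3 were the low libraries. The same pair was lowest for Cct3, Cct4, Cct5 and Cct8. In all, 6 of the 8 had a log2 fold change above 0 (background 36.4%), with Cct8 passing from -0.09 to 0.02 under median-ratio scaling and Cct5 from 0.08 to -0.02 after removal of length and GC trends. Subunits of 1 ring differed in level: Cct2 was 3.57, 4.47 and 3.67 times Cct8 in the controls and 3.95, 4.10 and 7.07 times with YOD1 (two-sided exact permutation p = 0.4, where 0.1 is the smallest possible).

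**Figure D4:**
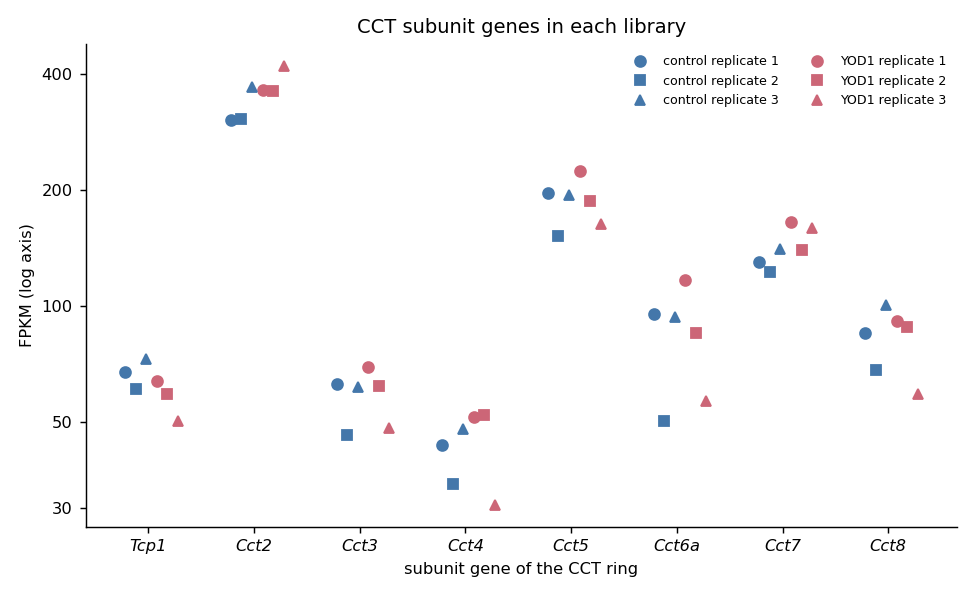
FPKM on a log axis of the 8 tested CCT subunit genes, 1 point per library. Control 2 and YOD1 3 are the lowest libraries for Cct3, Cct4, Cct5, Cct6a and Cct8, and no subunit separates the groups.

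In the mitochondrial matrix, Hspa9 (mortalin) is the Hsp70, and Hspd1 with its lid Hspe1 forms the chaperonin. Hspa9 measured 116, 84.6 and 124 FPKM in the controls and 123, 131 and 72.0 FPKM with YOD1, a log2 fold change of -0.02 that turned to 0.09 under median-ratio scaling and 0.03 after removal of length and GC trends. Hspd1 measured 92.4, 73.2 and 145 FPKM in the controls and 109, 101 and 67.7 FPKM with YOD1. Hspe1 measured 28.6, 21.6 and 30.4 FPKM in the controls and 31.5, 28.2 and 26.4 FPKM with YOD1. The groups of all 3 genes overlapped, and YOD1 3 was the lowest of its group. A list of 8 mitochondrial members held Hspa9, Hspd1, Hspe1, Dnaja3, Dnajc11, Dnajc15, Dnajc19 and Dnajc30. Of these, 4 had a log2 fold change above 0 (background 36.4%) and 4 below 0 (background 63.6%). Dnajc11, Dnajc19 and Dnajc30 were higher without overlap (background 9.77%) and none was lower without overlap (background 19.1%). Dnajc28, described above as lower in every YOD1 library, was not in this list. The list was chosen with earlier results known and may lack members that act in mitochondria, so its counts may not hold for all of them.

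Small heat shock proteins hold unfolded proteins without using ATP. Hspb1 (Hsp25 in mouse) measured 78.4, 98.8 and 103 FPKM in the controls and 91.7, 98.2 and 114 FPKM with YOD1, an overlap whose log2 fold change of 0.12 turned to -0.20 after removal of length and GC trends. Hspb6 measured 21.8, 19.7 and 34.1 FPKM in the controls and 29.3, 29.9 and 35.1 FPKM with YOD1 (log2 fold change 0.34, limma adjusted p = 0.326, with 0.19 without control 2 and 0.57 without control 3). Hspb7 split its own group: it measured 1.26, 1.26 and 1.08 FPKM in the controls, 0.0398 and 0.0429 FPKM in YOD1 1 and 2, and 1.27 FPKM in YOD1 3. Its log2 fold change was -0.70 (adjusted p = 0.201), with -2.11 at a pseudocount of 0.1, and without YOD1 3 it was -1.08 (adjusted p = 0.00519), which made it the single member called under any setting tried. Hspbap1, a protein that binds Hspb1, was higher without overlap at 8.80, 8.19 and 9.44 FPKM against 6.17, 7.21 and 6.60 FPKM in the controls (log2 fold change 0.36, adjusted p = 0.205).

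Hsf1, the regulator itself, measured 17.4, 19.1 and 19.1 FPKM in the controls and 15.1, 16.0 and 17.4 FPKM with YOD1. The highest YOD1 library was just under the lowest control, and the log2 fold change was -0.19 (limma adjusted p = 0.394). Of 10 heat-inducible members 9 were tested, 4 had a log2 fold change above 0 (background 36.4%), and Hsp90aa1 and Bag3 were lower without overlap (background 19.1%).

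Genes that work with these chaperones were read from 4 lists of 47 genes in all, and limma called none of the 47 (background 0.479%), with 4 higher and 5 lower at an unadjusted p under 0.05 (background 7.87% and 13%). In 16 Hsp90 cochaperones the median log2 fold change was -0.04. Chordc1 had a mean of 2.43 FPKM in the controls and 1.34 FPKM with YOD1 (adjusted p = 0.156), and Fkbp4, an immunophilin that joins Hsp90 to steroid receptors, had means of 239 and 311 FPKM (adjusted p = 0.173). St13, which links Hsp70 to Hsp90, had means of 37.8 and 30.4 FPKM (adjusted p = 0.216). In 10 prefoldin and CCT cofactor genes, some of which bring actin and tubulin to the ring, the median was 0.07. Vbp1, Pfdn1 and Uxt had the lowest p-values among them (log2 fold changes -0.45, 0.35 and 0.29).

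In 14 partners of the mitochondrial chaperones 9 had a log2 fold change above 0 (background 36.4%), and 5 were higher without overlap and none lower (background 9.77% and 19.1%). Tomm20, a receptor for imported proteins, had means of 38.2 FPKM in the controls and 58.8 FPKM with YOD1 (log2 fold change 0.62, limma adjusted p = 0.0956). Trap1, the mitochondrial Hsp90, had means of 103 and 129.6 FPKM (adjusted p = 0.182), and Clpp, a matrix protease, had means of 98.4 and 125 FPKM (adjusted p = 0.200). In 7 other heat shock response genes 1 had a log2 fold change above 0 (background 36.4%) and 3 were lower without overlap (background 19.1%). Hsbp1, which binds Hsf1, had means of 44.7 and 30.4 FPKM (adjusted p = 0.0944). Serpinh1, the collagen chaperone, had means of 372 and 460.0 FPKM (adjusted p = 0.264).

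Transcript length moved with the fold changes, across genes that are not independent replicates. Over 67 members Spearman's rho between length and log2 fold change was -0.37, and over 11388 tested genes with a length it was -0.40. The members from 773 to 2454 bases had a median of 0.10 and those from 3281 to 9479 bases had -0.22, beside 0.03 and -0.21 for all genes of the same lengths. After length and GC trends were removed, the log2 fold change was -0.84 for Hspa8 and -0.79 for Hsp90aa1. That of other named members moved more: Hspa4l went from -0.49 to -0.21, Dnajc13 from -0.56 to -0.32, Dnaja1 from -0.49 to -0.27, Hsph1 from -0.38 to -0.24, Tcp1 from -0.22 to -0.10 and Hspbp1 from 0.37 to 0.17. Cct7 and Hspbap1 moved the other way, from 0.24 to 0.36 and from 0.36 to 0.55. Median-ratio scaling took Bag3 from -0.27 to -0.17, Hsf1 from -0.19 to -0.08, Hsp90ab1 from -0.18 to -0.07 and Tcp1 from -0.22 to -0.11.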

How the data were processed

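The authors deposited 1 table of FPKM values per gene and library, per the file headers. Per the file headers it also holds the authors' fold ratio, with its log2, p-value and q-value. Tools listed in the submitters' processing notes are Bowtie 0.12.2, HISAT2 2.0 and StringTie 1.3.0, with the build mm8 and no roles. Library strand is not stated in the labels. From the FPKM, log2(FPKM + 1) was computed, and genes reaching 1 FPKM in 3 or more of the 6 libraries were tested with limma 3.58.1 in R 4.3.3 (two-sided, intensity trend, Benjamini-Hochberg adjustment), a method tested on simulated data. Total FPKM per library was 314172 to 352209. Ratios were compared by exact permutation.

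Members and lists were chosen with earlier results of these data known. Named were the 10 members of highest mean, the 8 of largest change in each direction, 11 stress genes, all CCT genes, Yod1, and the 3 partners of lowest p per list. The values of some listed genes are not reported here. Hspa2, Dnajc11 and Dnajc22 were named after their values were seen. Lengths came from GENCODE M21 transcripts and matched 99.2% of tested genes. Alternatives were no filter, a filter at 5 FPKM, a pseudocount of 0.1, a required size of 1 on the log2 scale, a replicate block, median-ratio scaling, removal of length and GC trends, and each library left out. Counts of members at an unadjusted p under 0.05 were added after seeing the data. Per-sample columns left unused numbered 0. Same-numbered control and YOD1 libraries gave correlations of deviations of 0.30, -0.12 and -0.11. The labels number the libraries and state no pairing, and with 3 libraries a group these correlations cannot decide whether they were paired.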

Additional observations from a re-analysis of the deposited data

How the results depend on the processing

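Limma called 55 of all tested genes (51 higher, 4 lower), 0 with no filter (3427 genes at an unadjusted p under 0.05), 169 under median-ratio scaling (160 higher, 9 lower), 20 after removal of length and GC trends (14 higher, 6 lower), and 19 without control 2 to 242 without control 3. Without control 1 it called 31 and without YOD1 3 it called 132. The cause was not tested. Members called were 0 under every one of these settings except without YOD1 3, where 1 (Hspb7) was called, so that leaving out libraries gave 0 to 1. At an unadjusted p under 0.05, 14 members stood in the reported analysis, 15 with no filter and 9 at a filter of 5 FPKM, where 49 were tested. With the replicate block 41 genes were called (33 higher, 8 lower) and 0 members, of which 12 were at an unadjusted p under 0.05. Not every library correlated best with its own number: control 2 and YOD1 3 gave 0.34.

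Over 35 named members, 386 of 413 values kept direction and side of the threshold, 26 turned direction and 1 (Hspb7, -1.08) passed. Median-ratio scaling turned Cct8 to 0.016 and Hspa9 to 0.085, and removal of length and GC trends turned Cct5 to -0.023, Hspa9 to 0.031, Hspb1 to -0.20 and Hspe1 to -0.013. Leaving out libraries gave -0.088 to 0.14 for Bag6, -0.19 to 0.24 for Hspa9, -0.00011 to 0.19 for Hspb1, -0.066 to 0.22 for Cct3, -0.072 to 0.31 for Cct4, -0.041 to 0.19 for Cct5, -0.19 to 0.37 for Cct6a, -0.24 to 0.10 for Cct8, -0.35 to 0.14 for Hspd1 and -0.041 to 0.19 for Hspe1. In the reported analysis, with all 6 libraries, the largest size of a log2 fold change among these 10 was 0.13. The precision of low members is limited by unknown depth and 3 libraries a group.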
